A study of Mus musculus with 69 samples.

Results

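The subject here is a set of 10 genes of the immediate early response, Jun, Junb, Jund, Fos, Fosb, Egr1, Ier2, Ier3, Atf3 and Dusp1, read in single cells of the embryonic mouse forebrain. They are 10 of the 18194 genes that could be read from probe sets assigned to 1 gene, and 12 probe sets carry them. The set was chosen by name with earlier results of these cells in view, in particular the signal of Jun in the cortical plate and in progenitors, so the values below are descriptions and carry no test. All 10 genes were read in every cell, with no filter on low signal.

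Each of the 69 samples is 1 cell from the dorsal forebrain of a CD1 mouse embryo at embryonic day 14. By their source labels, 66 cells came from fragments of the germinal layers, the ventricular or subventricular zone (VZ/SVZ), where progenitors divide, and 3 from the cortical plate (CP), where newborn neurons settle. For the 3 CP cells the description gives the VZ/SVZ, against their source label, which was used. Fragments were digested with trypsin and triturated, cells were picked by hand with a glass capillary, and 70 of 102 amplified cells were put on arrays per the labels. The titles carry a letter whose meaning the labels do not give: A (7 cells), B (14), C (7), D (7) and X (31) in the VZ/SVZ, and E for the 3 CP cells. No genotype, treatment or animal is named, so each source group is 1 sample and cells are not replicates of it.

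Jun, Junb and Jund encode the Jun subunits of the transcription factor AP-1, which pair with one another or with the Fos subunits encoded by Fos and Fosb. Transcription of most of these genes starts within minutes of a growth factor signal, depolarisation, stress or the dissociation of a tissue, without new protein synthesis, and Egr1, Atf3, Ier2, Ier3 and Dusp1 are induced in the same way. Jund is the member known for steady expression. Because enzymatic dissociation can induce such genes, the 8 members other than Jun and Jund are called handling-induced members below, as a name from background knowledge and not as a reading of these data.

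The promoters of the 2 members seen in most VZ/SVZ cells, Jun and Dusp1, and that of Fos, the classic partner of Jun, are shown because Jun and Dusp1 held signal in 37 and 39 of the 66 VZ/SVZ cells and Fos in 1. They are the 250 bases before the RefSeq start in GRCm38.p6, in the gene's own direction, with motif matches in capitals. The motifs were TGACGTCA (the CRE, bound by CREB and ATF factors) and TGACATCA (a variant bound by Jun with ATF2). The others were TGANTCA (a loose form of the AP-1 site, with any base at N) and the CArG box (bound by SRF). Both strands were searched, and no match overlapped another.
Jun, chr4:95052223-95052472, minus strand: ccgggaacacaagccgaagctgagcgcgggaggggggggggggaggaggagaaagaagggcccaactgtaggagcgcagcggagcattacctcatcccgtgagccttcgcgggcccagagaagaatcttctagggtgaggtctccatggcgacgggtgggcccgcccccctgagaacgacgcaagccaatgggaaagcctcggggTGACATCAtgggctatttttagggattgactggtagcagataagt
Dusp1, chr17:26508473-26508722, minus strand: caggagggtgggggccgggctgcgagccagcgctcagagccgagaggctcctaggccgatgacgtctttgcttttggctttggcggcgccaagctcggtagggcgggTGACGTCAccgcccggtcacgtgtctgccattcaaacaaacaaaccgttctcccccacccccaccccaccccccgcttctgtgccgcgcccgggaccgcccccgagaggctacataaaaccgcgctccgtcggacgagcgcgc
Fos, chr12:85473640-85473889, plus strand: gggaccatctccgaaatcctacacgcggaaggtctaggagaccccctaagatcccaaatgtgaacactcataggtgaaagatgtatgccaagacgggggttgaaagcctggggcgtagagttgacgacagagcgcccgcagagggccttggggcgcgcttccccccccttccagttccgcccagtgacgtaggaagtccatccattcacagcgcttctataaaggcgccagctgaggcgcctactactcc

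Jun held TGACATCA at 45 to 38 bases before its start, and Dusp1 held TGACGTCA at 143 to 136 bases before its start. TGACATCA occurred in 2.93% and TGACGTCA in 1.55% of the 32851 promoters of this length in the table, TGANTCA in 6.75% and the CArG box in 1.47%. Fos and the other 5 members with an entry (Junb, Jund, Fosb, Ier3 and Atf3) had no match of these letters in this window. Promoters were found for 8 of the 10 members, and Egr1 and Ier2 were not matched. A match is a description of the letters, not of binding.

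Signal here is the MAS5 intensity of a probe set, on a linear scale, and a gene counts as present in a cell where it exceeded 50. A share is followed by its 95% interval (exact, Clopper-Pearson), and a difference between shares by its Newcombe interval. Both cover counting error only. Between 3713 and 5715 genes per cell exceeded 50 (median 4697), and the trimmed mean of all probe sets ranged from 50.1 to 142. The bacterial spike RNA phe, at 20 copies per cell, exceeded 50 in 69 of 69 cells, and thr, at 5 copies, in 27 (39.1%, 27.6% to 51.6%), so a transcript at a few copies can go unseen in a cell that holds it.

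Members fell on both sides of the spread of all genes. Of the 10 members, 4 (Jun, Dusp1, Jund and Ier2) exceeded 50 in 10% to 90% of the 66 VZ/SVZ cells and 6 in under 10%, of which Egr1 and Atf3 did so in none. Over all 18194 genes, 41.9% lay between 10% and 90%, 52.2% under 10%, and 38.9% exceeded 50 in no VZ/SVZ cell, so the count of rare members is near that of genes at large.

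Jun, the founding AP-1 subunit (Entrez 16476, chromosome 4, 95049036 to 95052222), was either bright or at background. Its signal in the 66 VZ/SVZ cells had a lowest value of 0.799, a median of 483 and a highest of 2672, and it exceeded 50 in 37 cells (56.1%, 43.3% to 68.3%). No cell lay near the threshold: the dimmest of the 37 read 239 and the brightest of the other 29 read 18.1. The second Jun probe set exceeded 50 in 13 VZ/SVZ cells, 12 of them among the 37. The first probe set had a median of 1356 where the second was also above 50 and 1073 where it was not.

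The other Jun family members did not share this distribution. Jund read 7.54 at its lowest, 39.2 at its median and 266 at its highest, with no gap at the threshold (52 just inside and 49.3 just outside). It exceeded 50 in 24 of 66 cells (36.4%, 24.9% to 49.1%), a share that moves with the threshold, and its second probe set stayed at or below 20.5 in every VZ/SVZ cell. Junb exceeded 50 in 3 VZ/SVZ cells (4.55%, 0.947% to 12.7%), at 136, 235 and 299.

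Fos family signal was nearly absent. Fos (chromosome 12, 85473890 to 85477274) exceeded 50 in 1 of 66 VZ/SVZ cells (1.52%, 0.0384% to 8.16%), where it read 1488. Fosb exceeded 50 in 2 cells (3.03%, 0.369% to 10.5%), at 439 in that same cell and at 352 in another. That second cell held Jun at 1189 and Fos at 2.25.

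Among the other early genes, the zinc finger factor Egr1 and the stress factor Atf3 exceeded 50 in 0 of 66 VZ/SVZ cells, which allows a share of up to 4.55% (3 cells of 66, the limit used for a count of 0). The highest Egr1 value was 15 and the highest Atf3 value 16.5. Ier3, which encodes a small regulator of ERK signalling and survival, exceeded 50 in 2 cells (3.03%), at 454 and 827. Ier2, a small nuclear protein of the early response, read 0.518 at its lowest, 7.69 at its median and 1270 at its highest, and exceeded 50 in 16 cells (24.2%, 14.5% to 36.4%). It too left the threshold clear, with 133 just inside and 16.8 just outside. Dusp1, the phosphatase that switches off p38, JNK and ERK kinases (chromosome 17, 26505591 to 26508472), read 0.189 at its lowest, 227 at its median and 2705 at its highest. It exceeded 50 in 39 cells (59.1%, 46.3% to 71.0%), with 87.1 just inside and 8.95 just outside.

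**Figure D1:**
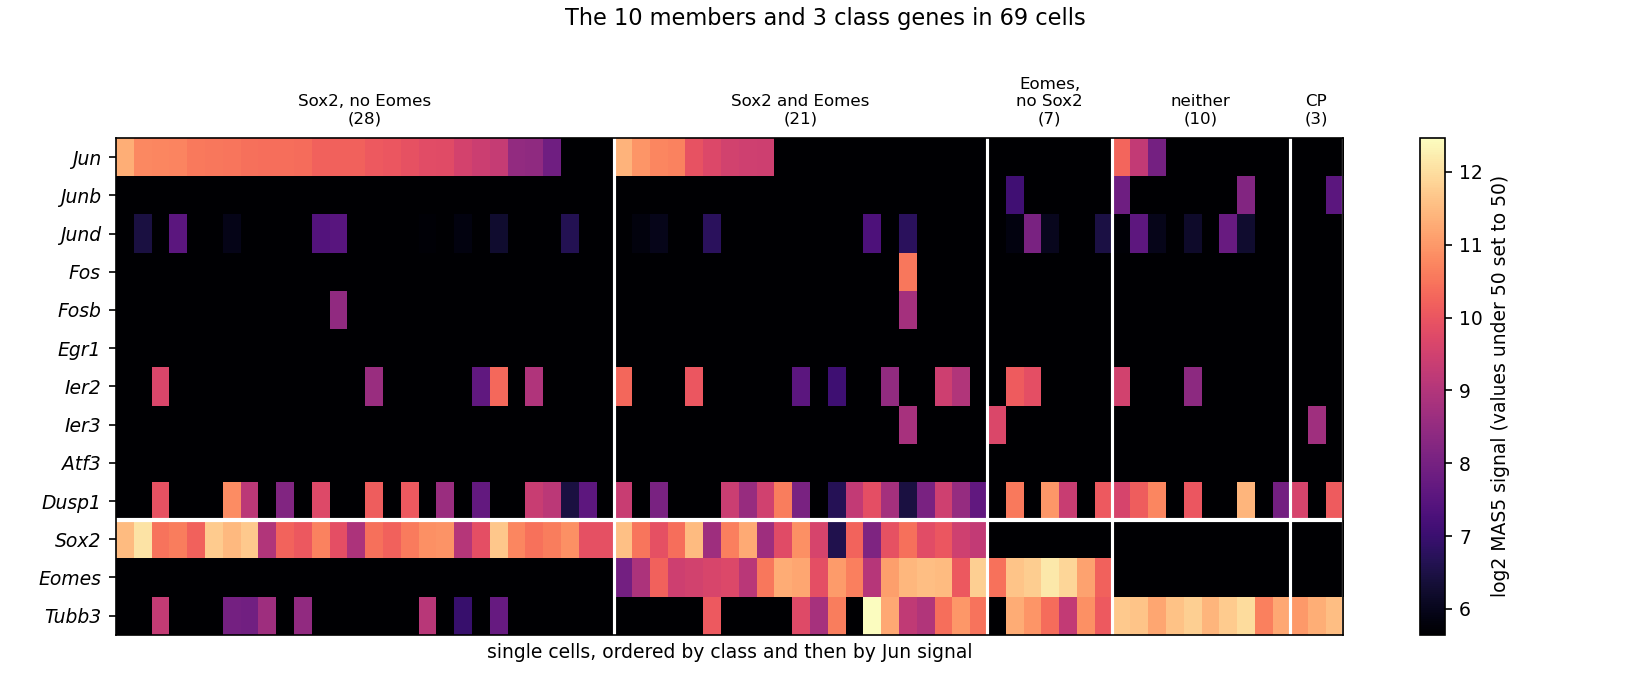
Each column is 1 of the 69 cells and each row a gene, coloured by log2 MAS5 signal with values under 50 set to 50, for the 10 members (top) and the 3 class genes Sox2, Eomes and Tubb3 (bottom). Cells are grouped by Sox2 and Eomes class and ordered by Jun within it: Jun is bright in 25 of the 28 cells with Sox2 and no Eomes, while the Fos, Egr1 and Atf3 rows hold signal in 1 cell together.

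The cells were then split by 3 genes of the neurogenic lineage, each above or not above 50. Sox2, a transcription factor of apical progenitors (radial glia), exceeded 50 in 49 of 66 VZ/SVZ cells (96.3 just inside, 47.8 just outside). Eomes, also called Tbr2, a transcription factor of intermediate progenitors, did so in 28 (245 and 40.8). Tubb3, a neuronal tubulin, did so in 35 (124 and 39.1).

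Jun was present in a larger share of cells with Sox2 than without, and in a smaller share of cells with Eomes or Tubb3 than without. It exceeded 50 in 34 of 49 cells with Sox2 and 3 of 17 without, a difference of 51.7 percentage points (24.5 to 67.7). With Eomes it was present in 9 of 28 cells and without it in 28 of 38, a difference of −41.5 points (−59.7 to −17.3). With Tubb3 the counts were 12 of 35 and without it 25 of 31, a difference of −46.4 points (−63.2 to −22.7). As background, of 7622 genes present in 10% to 90% of VZ/SVZ cells, 24.2% were higher by at least 20 points with Sox2, 8.19% lower by as much with Eomes and 11.8% lower with Tubb3.

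Joint classes of Sox2 and Eomes were read as well, chosen after the single splits had been seen. Among the 28 cells with Sox2 and no Eomes, Jun read 3.38 at its lowest, 1128 at its median and 2517 at its highest, and was present in 25 (89.3%, 71.8% to 97.7%). Among the 21 cells with both, it read 0.799, 11.2 and 2672 and was present in 9 (42.9%, 21.8% to 66%). In the 7 cells with Eomes and no Sox2 the highest value was 10.4, and Jun was present in none. The 10 cells with neither gene, all of which held Tubb3, included 3 with Jun (30%, 6.67% to 65.2%).

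These ranges overlap in every class that holds both kinds of cell, and what differs is how many cells fall on the bright side. The first 2 classes differed by 46.4 points (20.1 to 66.1), where 12.6% of the 7622 genes were higher by at least 20 points. Median trimmed means were 94.6 and 95.6 in those 2 classes, 96.2 in the cells with Eomes and no Sox2 and 78.0 in the cells with neither. Tubb3 did not separate Jun further among the cells with Sox2 and no Eomes: Jun was present in 8 of 8 with Tubb3 and 17 of 20 without. It did so among the 21 cells with both Sox2 and Eomes, where most cells with Jun lacked Tubb3 and most without Jun held it. The order of classes by Jun share was therefore Sox2 without Eomes, then Sox2 with Eomes, then neither, then Eomes without Sox2, and the intervals of the last 3 overlap.

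Dusp1 tended the other way between the 2 Sox2 classes. It read 0.189, 4.99 and 1812 (lowest, median and highest) in the 28 cells with Sox2 and no Eomes and was present in 13 (46.4%, 27.5% to 66.1%). In the 21 cells with both it read 0.350, 268 and 1579 and was present in 16 (76.2%, 52.8% to 91.8%). That is a difference of −29.8 points (−51.2 to −2.04), where 7.78% of genes were lower by at least 20 points. Title letter X makes up more of the first class than of the second, and Dusp1 was itself less frequent in X than in B (−37.3 points). The part of letter in this difference was not tested. It was present in 4 of 7 cells with Eomes alone and 6 of 10 with neither, and the ranges of all 4 classes overlap widely. By Eomes alone it was present in 20 of 28 against 19 of 38 cells, a difference of 21.4 points whose interval (−2.47 to 41.6) spans 0, where 5.27% of genes were higher by at least 20 points.

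Jund and Ier2 followed the classes less clearly. Jund was present in 14 of 49 cells with Sox2 and 10 of 17 without, a difference of −30.3 points (−52.6 to −3.57), where 10.4% of genes were lower by at least 20 points. It was present in 17 of 35 cells with Tubb3 and 7 of 31 without, a difference of 26 points (2.76 to 45.4), where 8.75% of genes were higher by as much. Because Jund values lie close to 50, these counts rest on small differences in signal. Ier2 was present in 9 of 28 cells with Eomes and 7 of 38 without (13.7 points, −6.94 to 34.4), in 11 of 35 with Tubb3 and 5 of 31 without (15.3 points, −5.64 to 34.2), and differed by 0.960 points between cells with and without Sox2.

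**Figure D2:**
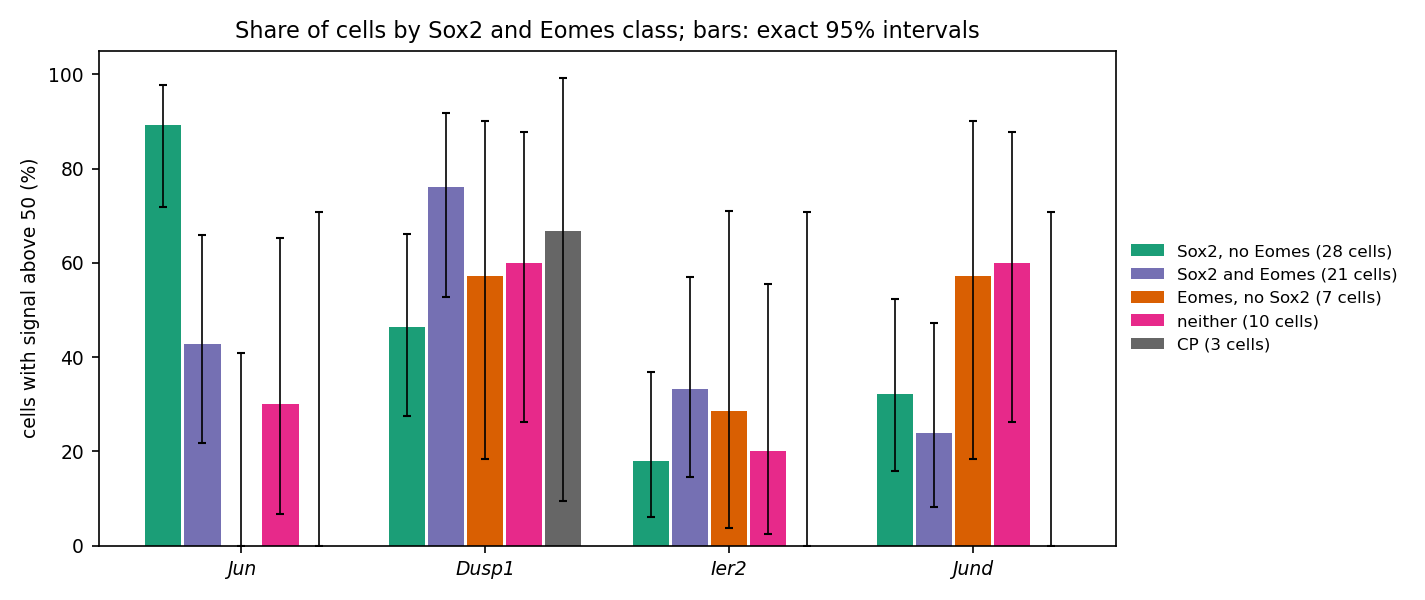
Bars give the share of cells (percent) with signal above 50 for Jun, Dusp1, Ier2 and Jund in the 4 Sox2 and Eomes classes of VZ/SVZ cells and the 3 CP cells, with exact 95% intervals as lines. Jun runs from 89.3% of cells with Sox2 and no Eomes to none of the 7 with Eomes and no Sox2, while the intervals of Dusp1, Ier2 and Jund overlap across the classes.

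The title letters differed in Jun, and they also differ in class. Sox2 was present in 7 of 7 cells of letter A, 12 of 14 of B, 4 of 7 of C, 0 of 7 of D and 26 of 31 of X, and Eomes in 0, 13, 7, 0 and 8 of the same. Letter and class therefore cannot be told apart in letters A and D, which hold 1 class each. They overlap heavily in B and C, where cells with and without Sox2 occur but nearly all hold Eomes. Jun read 239, 1333 and 1711 (lowest, median and highest) in the 7 cells of letter A and was present in all 7. It read 1.39, 8.94 and 1724 in letter B, with 5 of 14 present, and 0.932, 896 and 2672 in letter X, with 23 of 31 present. In letters C and D it was present in 1 of 7 cells each, at 833 and 1224. Letter A thus lay wholly on the bright side, letters C and D almost wholly at background, and B and X held both kinds of cell.

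Jun was more frequent in X than in B by 38.5 points (7.57 to 61.3) and in A than in B by 64.3 points (20.6 to 83.7). The shares of genes higher by at least 20 points in those comparisons were 10.4% and 23.2%. Dusp1 ran the other way, present in 12 of 14 cells of letter B and 15 of 31 of letter X, a difference of −37.3 points (−56.7 to −6.68), where 8.63% of genes were lower by as much. It was present in 5 of 7 cells of letter A, 4 of 7 of C and 3 of 7 of D. Ier2 was present in 2 of 7 cells in each of A, C and D, 4 of 14 in B and 6 of 31 in X, and Jund in 1 of 7 in A, 4 of 14 in B, 1 of 7 in C, 3 of 7 in D and 15 of 31 in X.

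For Sox2 and Eomes, the difference in Jun had the same sign within and outside letter X, but within X their intervals included no difference. Within X, Jun was present in 4 of 8 cells with Eomes and 19 of 23 without (−32.6 points, −62.9 to 2.05). Outside X the difference was −35.0 points (−59.5 to −2.34). Within and outside X, 21.7% and 10.8% of genes were lower by at least 20 points. For Sox2 the difference within X was 40.8 points (−0.599 to 71.0), on 21 of 26 against 2 of 5 cells. Outside X it was 48.2 points (14.7 to 67.3), and 27.4% and 27.3% of genes were higher by at least 20 points within and outside. For Tubb3 the difference within X was −16.4 points (−47.0 to 13.9), on 7 of 11 against 16 of 20 cells. Outside X it was −61.0 points (−78.4 to −25.5), and 15.2% and 17.7% of genes were lower by at least 20 points within and outside. With cells this few, many genes pass 20 points within a letter. The relation of Dusp1 to Sox2 turned with the letter, at −61.5 points within X (22% of genes lower by as much as 20 points) and 40.9 outside. That to Tubb3 turned likewise, at 37.7 points within X (15.7% of genes higher by 20 points) and −32.6 outside.

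**Figure D3:**
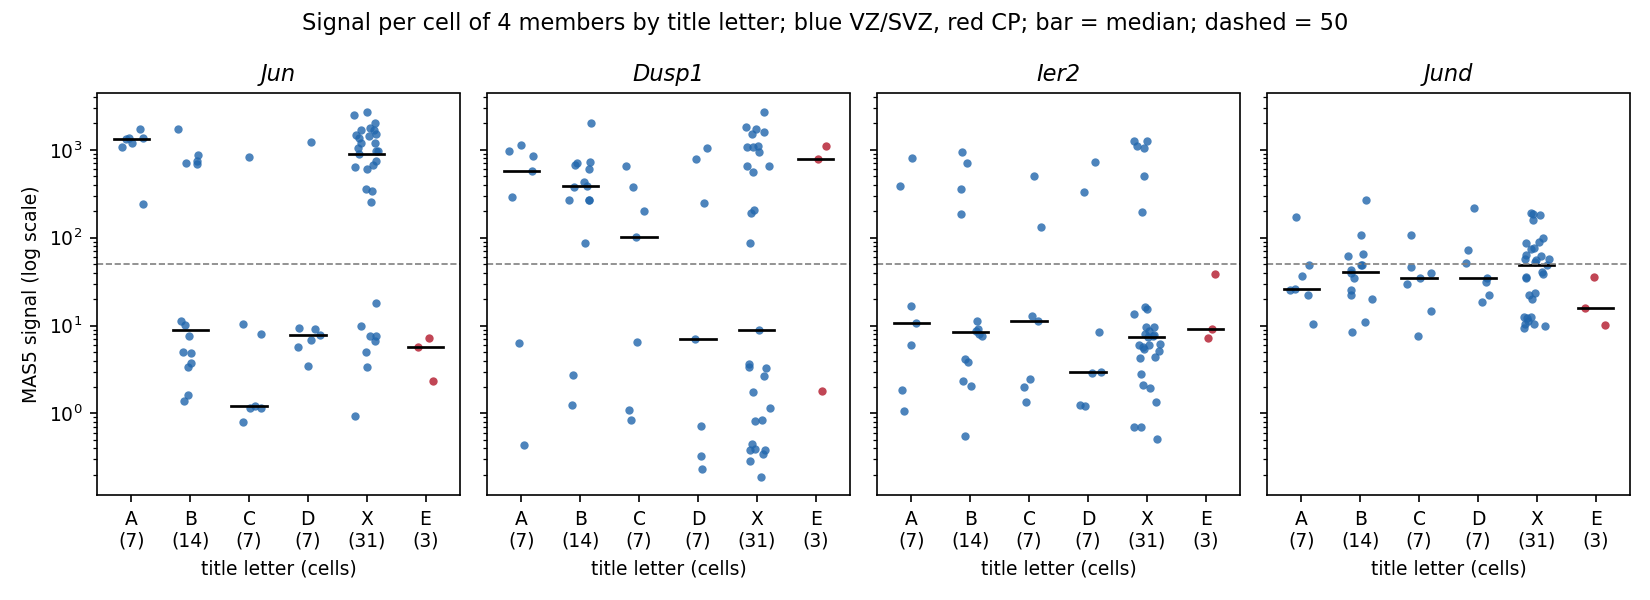
Each point is 1 cell, placed by the letter in its title (number of cells in parentheses) and by its MAS5 signal on a log scale, for Jun, Dusp1, Ier2 and Jund, with VZ/SVZ cells in blue, CP cells in red, a bar at the median and a dashed line at 50. Jun leaves a gap between 18.1 and 239 that Jund, which crosses 50 without a gap, does not show.

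The 3 CP cells held no Jun. Jun read 5.63, 7.27 and 2.31 in them, and its mean on the log2 scale, with values under 50 set to 50, was lower than in the 66 VZ/SVZ cells by 2.43, with all 3 below the 18.1 of the brightest VZ/SVZ cell that counts as without Jun. Jun was the only one of the 10 members lower by at least 1 log2 unit, as 12.9% of 18194 genes were. No member was higher by as much in the values as deposited, as 5.07% of genes were. Dusp1 was higher by 0.746 as deposited, by 1.31 with cells scaled to 1 trimmed mean and by 1.26 under quantile normalization. Without the first CP cell, the one with Dusp1 at 1.79, the difference was 2.15. Without the second it was 0.168, and without the third −0.079. It was 0.664 at a threshold of 100, and 0.205 against the 10 VZ/SVZ cells with Tubb3 and neither Sox2 nor Eomes. The shares of all genes higher by 1 log2 unit under these alternatives are not given. The alternatives gave this difference by gene only for Jun and Dusp1. Ier3 as deposited averaged 6.66 in the CP cells and 5.75 in the VZ/SVZ cells, with 1 CP cell above 50. Against the 10 VZ/SVZ cells with Tubb3 and neither Sox2 nor Eomes, of which 3 held Jun, the Jun difference was −1.06. Jun was a reason for the choice of the set, so nothing is read from its place here. Dusp1 read 1.79, 777 and 1095 in the CP cells, Ier3 413, 2.16 and 0.886, and Junb 1.07, 0.998 and 187. Ier2 read 38.7, 9.04 and 7.22, and Jund 10.2, 35.7 and 15.7, all within the range of the VZ/SVZ cells. Fos, Fosb, Egr1 and Atf3 stayed at or below 9.26 in all 3. The trimmed mean was 50.1 to 76.1 in the CP cells and 59.2 to 142 in the VZ/SVZ cells, and its part in these differences was not tested.

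Whether Jun in progenitors came with other handling-induced members was read in the 56 VZ/SVZ cells with Sox2 or Eomes, of which 34 held Jun and 22 did not. In the 34 it came without Junb, Fos, Egr1, Ier3 and Atf3 in every cell, and with Dusp1 in 16. The genes absent there were rare without Jun too. Among the 22, Junb and Fos were present in 1 cell each, Ier3 in 2, and Egr1 and Atf3 in 0. Egr1 and Atf3 were present in no VZ/SVZ cell at all, as were 38.9% of all 18194 genes. The share of all genes absent from the 34 cells with Jun is not given. The absence of such rare genes therefore says little about whether Jun came apart from them. Among the 34 cells with Jun, 15 held none of the 8 handling-induced members (44.1%, 27.2% to 62.1%), 11 held Dusp1 alone, 5 held Ier2 and Dusp1, 2 held Ier2 alone and 1 held Fosb alone. No cell with Jun held 3 or more of them. Among the 22 cells without Jun, 3 held none, 10 held Dusp1 alone, 5 held Ier2 and Dusp1, and 1 each held Ier2 alone, Ier3 alone, Junb with Ier2 and Dusp1, and Fos with Fosb, Ier3 and Dusp1.

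A smaller share of the cells with Jun held a handling-induced member. At least 1 was present in 19 of 34 cells with Jun (55.9%, 37.9% to 72.8%) and 19 of 22 without (86.4%, 65.1% to 97.1%), a difference of −30.5 points (−49.2 to −5.58). Outside letter X it was −9.74 points (−38.6 to 19), on 10 of 13 against 13 of 15, and over all VZ/SVZ cells −16.4 points (−36.3 to 6.50). At least 2 were present in 5 of 34 and 7 of 22. Dusp1 was present in 16 and 17 of those cells. With Dusp1 left out, a choice made after seeing the data, the counts were 8 of 34 (23.5%) and 9 of 22 (40.9%). Within letter X they were 6 of 21 and 1 of 7 (14.3 points, −25.6 to 38.7). Outside X they were 2 of 13 and 8 of 15 (−37.9 points, −62.4 to −2.45), so the direction turned with the letter. With Ier2 left out as well, the counts over all progenitors were 1 of 34 (2.94%) and 3 of 22 (13.6%).

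Dusp1 itself was present in 16 of 34 progenitors with Jun and 17 of 22 without, a difference of −30.2 points (−50.3 to −3.92). Of 7386 genes compared in this way, 8.49% were lower by at least 20 points, 12.1% were higher, and the median difference was 1.87 points. Within letter X the counts were 6 of 21 and 6 of 7 (−57.1 points, −76.0 to −14.4, where 13.4% of genes were lower by at least 20 points), and outside it 10 of 13 and 11 of 15 (3.59 points), so the difference rests on letter X. Ier2 was present in 7 of 34 and 7 of 22 (−11.2 points, −34.5 to 11.2), and Jund in 11 of 34 and 7 of 22 (0.535 points, −24.2 to 23.4).

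The 2 kinds of progenitor also differ in class, since Eomes was present in 9 of 34 with Jun and 19 of 22 without, and Sox2 in 34 of 34 and 15 of 22. Among the 21 cells with both Sox2 and Eomes, Dusp1 was present in 5 of 9 with Jun and 11 of 12 without (−36.1 points, −65.8 to 1.11, where 17.5% of genes were lower by at least 20 points), and at least 1 handling-induced member in 6 of 9 and 11 of 12. The median trimmed mean was 96.1 with Jun and 93.0 without, and the thr spike exceeded 50 in 17 of 34 and 8 of 22 cells. Among the 21 cells with both Sox2 and Eomes, most with Jun lacked Tubb3 and most without Jun held it. This holds for every comparison by Jun within these 21 cells, here and below. The part of class, Tubb3, letter and detection in the differences was not tested.

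The cells with a rare member were as follows. The single Fos cell, of letter B, held Fos at 1488, Fosb at 439, Ier3 at 454, Dusp1 at 87.2 and Jund at 108, with Jun at 3.34. It held Sox2 at 1383, Eomes at 2789 and Tubb3 at 598. The second Ier3 cell, of letter C, read 827 for Ier3 and 10.4 for Jun and held Eomes at 1403. Of the 3 VZ/SVZ cells with Junb, all held Dusp1 (779, 1510 and 2705), 2 held Ier2 (733 and 1102), and the one with Junb at 235 also held Jun, at 1224. Over the 66 VZ/SVZ cells, Dusp1 was present in 13 of 16 cells with Ier2 and 26 of 50 without, a difference of 29.3 points (1.63 to 47.4). Of the pairs among Jun, Jund, Ier2 and Dusp1, only this one had an interval that left out 0. The share of all genes that differed by as much with Ier2 is not given. By correlation over these 66 cells, Dusp1 ranked 468th of 7622 genes for Ier2, and Ier2 580th for Dusp1. Across these cells, which share probe sets and scaling, the log2 signal of Dusp1 correlated with that of Ier2 at r = 0.20, and that of Jun at −0.13 with Dusp1, −0.01 with Ier2 and −0.04 with Jund, given as a description.

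Other genes of the immediate early response were read from a list of 30. In VZ/SVZ cells 11 were present in none and 19 in under 10%, where 38.9% and 52.2% of all 18194 genes were. The share in none is thus near that of genes at large. Among the 11 were the AP-1 subunits Fosl1 and Fosl2, the Egr1 relatives Egr2, Egr3 and Egr4, and Nr4a3. Ier5 was present in 56 of 66 cells, Btg2, an antiproliferative gene of neurogenic progenitors, in 45, Ier5l in 31, and Ccn1 (Cyr61, a secreted matrix protein) and Rhob, a small GTPase, in 24 each. Of the 11 present in 10% to 90% of the cells compared, 1 was higher by at least 20 points in progenitors with Jun and 3 were lower, where 12.1% and 8.49% of all genes compared were. Their median was 8.02 points against 1.87 over all genes.

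Over all progenitors, Ccn1 was the gene of this list that went with Jun. It was present in 22 of 34 progenitors with Jun and 2 of 22 without, a difference of 55.6 points (30.5 to 70.9). It was present in 19 of 28 cells with Sox2 and no Eomes, 5 of 21 with both, 0 of 7 with Eomes and no Sox2 and 0 of 10 with neither. Among the 21 with both genes, it was present in 5 of 9 with Jun and 0 of 12 without (55.6 points, 17.8 to 81.1). There, 14.6% of genes were higher by at least 20 points. Among the 28 with Sox2 and no Eomes, Ccn1 was present in 17 of 25 with Jun and 2 of 3 without. The shares were alike in that class, on only 3 cells without Jun. Rhob was present in 5 of 34 and 10 of 22 (−30.7 points, −52.3 to −6.64), Btg2 in 23 and 21 (−27.8 points), and Ier5 in 25 and 21 (−21.9 points).

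Heat shock genes, which encode chaperones, were read as a second stress response. Of 11 read, Hspa8, Hsp90aa1, Hspd1, Hspe1 and Dnaja1 were present in all 56 progenitors. The strongly inducible Hspa1a and Hspb1 were present in none, and Hspa1b in 2 of 34 with Jun and 0 of 22 without. Of the 3 list genes present in 10% to 90% of the cells compared, 0 differed by 20 points in either direction. Of all genes compared, 12.1% were higher and 8.49% lower by as much. The median of the 3 was 9.36 points with against without Jun, where that of all genes compared was 1.87.

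Of 16 genes read that encode possible partners of AP-1 subunits or related factors, the widely present ones were shared by both kinds of progenitor. Atf2, a partner of Jun, was present in 30 of 34 progenitors with Jun and 19 of 22 without, Atf4 in 34 and 21, and Creb1 in 32 and 19. Mafg, a small Maf protein, was present in 13 of 34 and 15 of 22 (−29.9 points) and was the 1 of 5 genes in the range compared that differed by 20 points. The list's median was 1.87 points, that of all genes compared.

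Among 20 genes of the JNK pathway, which phosphorylates Jun, and of Jun turnover, 14 were in the range compared, 2 were higher with Jun by at least 20 points and 0 lower, with a median of −5.75 points. That count is near the background share of 12.1% higher. The higher ones were Dusp16, a JNK phosphatase, at 25 of 34 and 8 of 22 (37.2 points, 10.6 to 57.6), and Fbxw7, a ubiquitin ligase subunit that targets Jun, at 24 of 34 and 11 of 22 (20.6 points, −4.95 to 43.6). The kinases themselves differed by less than 20 points: Mapk8 (JNK1) was present in 15 of 34 and 14 of 22, and Mapk9 (JNK2) in 19 of 34 and 12 of 22. In the 21 cells with Sox2 and Eomes, Fbxw7 was present in 6 of 9 with Jun and 2 of 12 without (50 points, 7.95 to 74.4) and Dusp16 in 5 of 9 and 4 of 12 (22.2 points, −17.7 to 54.4).

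Of 12 genes of the SRF and ERK inputs, which drive Fos and Egr1, 9 were in the range compared, 1 was higher and 1 lower by 20 points, also near the background shares, with a median of −6.42 points. Mrtfb, a coactivator of SRF, was present in 16 of 34 and 5 of 22 (24.3 points, −1.60 to 44.9), and Srf in 15 and 7. Dusp4, a phosphatase induced by ERK, was present in 3 of 34 and 10 of 22 (−36.6 points, −57.3 to −13.3), and in the cells with Sox2 and Eomes in 1 of 9 and 9 of 12 (−63.9 points).

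**Figure D4:**
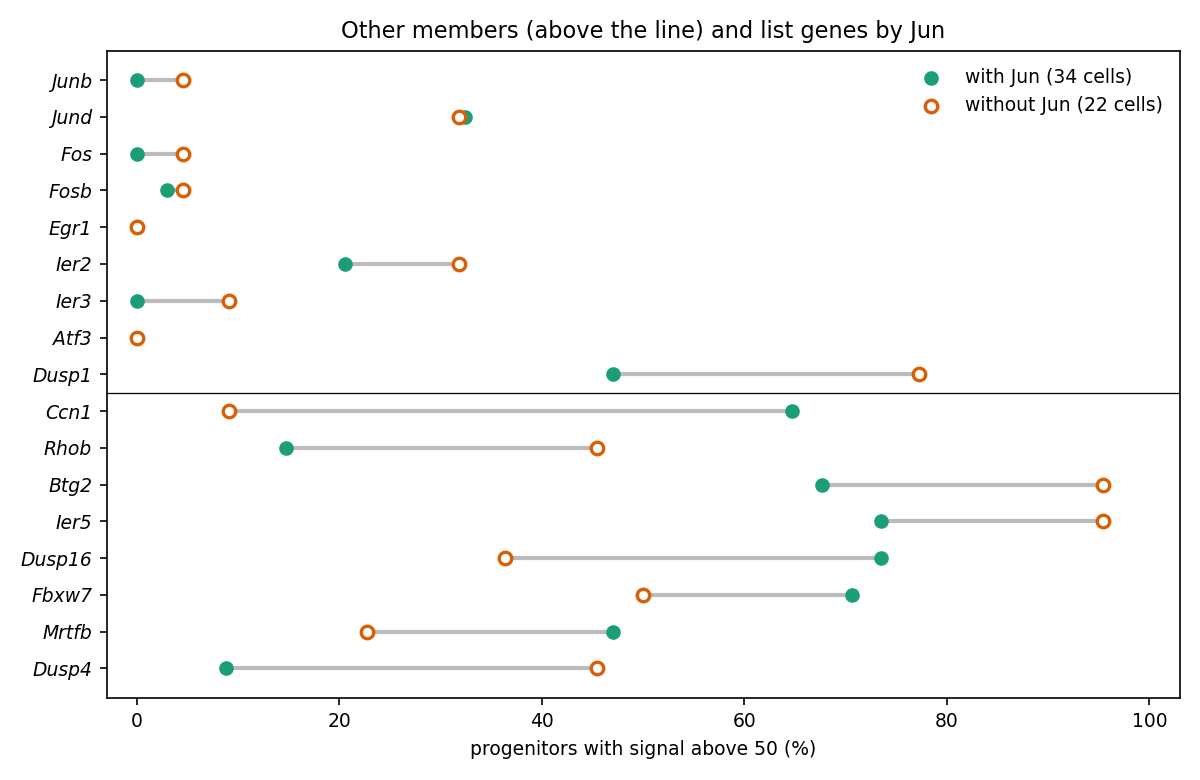
Filled points give the percent of the 34 progenitors with Jun, and open points that of the 22 without Jun, in which each gene exceeded 50, for the other 9 members above the line and the genes with the widest gaps in 3 of the lists below it. Dusp1 is lower with Jun (16 of 34 against 17 of 22) and Ccn1 higher (22 of 34 against 2 of 22), while Egr1 and Atf3 sit at 0 in both.

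Markers of the lineage were read for the same split, with Sox2 and Eomes, which define the progenitors here, among them. Of the 6 apical progenitor markers in the range compared, 5 were higher by at least 20 points with Jun and 0 lower (median 31.3 points), for example Hes5, a Notch target, at 23 of 34 and 5 of 22. Of 8 intermediate progenitor markers, 0 were higher and 7 lower (median −27.0 points), and of 5 neuron markers 0 were higher and 5 lower (median −46.3 points). The 2 cell cycle markers in the range differed by less than 20 points. Microglia markers exceeded 50 in 0 progenitors for all 8 genes, and endothelial markers in 0 cells with Jun and 1 without. Interneuron markers were present in 0 and 2 cells, Cajal-Retzius markers in 4 and 6, and oligodendrocyte precursor markers in 1 and 0. At least 1 of 8 pericyte and meningeal markers was present in 7 of 34 cells with Jun and 1 of 22 without, with summed signals of 26.2 to 711 and 17.9 to 438; 5 of the 8 were above 50 in no cell with Jun, and their part in the results was not tested.

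The genes whose signal was most like that of Jun over the 66 VZ/SVZ cells, by Pearson r of log2 values among 7622 genes, were Fgfr2 (0.71), Id4 (0.71), Sox1 (0.70), Ppp1r1a (0.69), Mfge8 (0.68), Rgcc (0.68), Ptgfrn (0.67) and Acot1 (0.65). Fgfr2, an FGF receptor, was present in 44 cells, 35 of which held Jun, and Id4, an inhibitor of bHLH factors, in 45, of which 35 held Jun. Sox2 ranked 37th (0.57), and Eomes (−0.48) and Tubb3 (−0.58) lay near the other end. The 3 other members that could be ranked were not close: Ier2 ranked 4524, Jund 5077 and Dusp1 6251. The closest genes of the other members had lower r, from 0.62 to 0.43 for the 8 closest to Jund (led by Mtf1, Hectd3, Clasp2, Brd2, Senp2, Rgmb, B3gat1 and Bcl2l2), 0.59 to 0.42 for Ier2 (Yod1, Hsd17b11, Acyp1, Col11a1, Yars2, Ccdc171, Orai1 and Pomgnt2) and 0.45 to 0.40 for Dusp1 (Pheta1, Nadk, Usp9x, D430019H16Rik, Igdcc3, Tmem151b, Adam11 and Traf6). These values share cells, scaling and lineage, and are descriptions.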

How the data were processed

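The deposited table gives 1 linear intensity per probe set and cell, from MAS5 per the submitters' notes on processing. Scaling, detection calls and the MAS5 version are not given in the sources used here. Of 45101 probe sets, 34958 had 1 gene in the platform annotation, 932 several and 9211 none. A gene's value came from its 1-gene probe set that was brightest on average (mean log2 over 69 cells), and values under 50 were set to 50 (5.64 on the log2 scale) before log2. The threshold of 50 came with the rule that defines the set. Progenitors are VZ/SVZ cells with Sox2 or Eomes above 50. Symbols were updated through RefSeq, and list genes without a 1-gene probe set are not analysed here.

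The members, lists and splits were chosen with earlier results of these data known. Named genes are the 10 members, the 8 genes most like each member present in 10% to 90% of VZ/SVZ cells, up to 4 genes per pathway list with the widest gap by Jun, and Sox2, Eomes and Tubb3; other list genes are named after their values were seen. Genes were compared where 10% to 90% of the cells held them. No label names an animal, so no test was run and no p-value computed. Python 3.11.15 with numpy 2.4.6, pandas 2.3.3, scipy 1.17.1 and matplotlib 3.10.9 was used, and the computations were tested on simulated data. Alternatives were thresholds of 25 and 100, the brightest probe set per cell, scaling to 1 trimmed mean (2% trimmed at either end), quantile normalization, letter X alone or left out, other definitions of progenitors, each CP cell left out, and CP against VZ/SVZ cells with Tubb3 and neither Sox2 nor Eomes.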

Additional observations from a re-analysis of the deposited data

Results flagged for a closer look

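Within the title letters of 4 to 10 cells, the highest or lowest cell stood apart from the others of its letter in 9 of 14 gene and letter combinations with any spread, by the gap to its nearest neighbour over the whole range of log2 signal. Chance alone sets a cell apart in about 1 in 20 groups of a continuous measure. Values under 50 had been set to 50, so these groups are not continuous. In letter A, the lowest Jun cell read 239 and the highest Jund cell 172. In letter C, the highest cells read 833 for Jun, 108 for Jund, 508 for Ier2 and 827 for Ier3. In letter D, they read 1224 for Jun, 235 for Junb and 217 for Jund.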

How the results depend on the processing

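Of 256 alternative values over 37 results, 242 stayed within the interval set around the reported value (counts within 1.5 times), 13 moved beyond it and 1 reversed. For shares and their differences this was the counting interval. For log2 differences it was 1 standard deviation over VZ/SVZ cells to either side, and for list medians that over list genes. These last intervals are wide, so staying within them says little. Of the 242, 16 changed sign, among them Jund by Eomes (9.44 points at a threshold of 25), Ier2 by Jun in progenitors (9.52 in letter X alone), Dusp1 in CP (−0.08 on the log2 scale without the third CP cell) and the median of the SRF and ERK list (4.76 with the brightest probe set). Jund by Sox2 shrank to −4.17 points at a threshold of 100. The share with at least 1 handling-induced member differed by −9.74 points with letter X left out and by −23.8 (−43.7 to 1.89) under quantile normalization, against −30.5. The share of VZ/SVZ cells with Jund was 36.4% and became 68.2% at a threshold of 25 and 13.6% at 100. With letter X left out, Jun was present in 40% of VZ/SVZ cells against 56.1%, and progenitors with Jun and no handling-induced member made up 23.1% against 44.1%. That share was 76.5% with Dusp1 left out of the members counted, an alternative added after seeing the data. The Tubb3 difference of Jun was −16.4 points in letter X alone, against −46.4. The Dusp1 difference between progenitors with and without Jun reversed to 3.59 points with letter X left out. The causes were not tested. The Jun difference between CP and VZ/SVZ ranged from −2.99 to −1.06 on the log2 scale over the alternatives, the latter against Tubb3 cells without Sox2 or Eomes. No paired analysis was possible because the labels give no replicate numbers shared between groups. An RNA at 5 copies per cell was seen in 39.1% of cells, and the copy number of the rare members is not known.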
